A study of Mus musculus with 14 samples.

Results

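Interferon-stimulated genes are the genes that cells switch on when an interferon binds its receptor. The 42 mouse genes described here were chosen by name from the main families of this response. The choice was made with earlier results of these data known. Shares of the members set beside those of all genes are therefore description and no independent support. The members include transcription factors (Irf1, Irf7, Irf9, Stat2), Isg15 and its modifiers (Usp18, Trim25) and nucleic acid sensors (Ifih1, Dhx58, Zbp1, Ifi204, Ifi209). Antiviral families are the oligoadenylate synthetases (Oas1a, Oas2, Oas3, Oasl2), Ifit proteins (Ifit1, Ifit2, Ifit3), membrane restriction factors (Ifitm1, Ifitm2, Ifitm3, Ifitm6, Bst2) and other effectors (Mx1, Rsad2, Ifi44, Rtp4, Parp14, Xaf1, Ifi35). The rest are interferon-inducible GTPases (Gbp2, Gbp3, Gbp4, Gbp5, Gbp7, Igtp, Irgm1, Irgm2, Iigp1, Ifi47) and the chemokine gene Cxcl10. All 42 were found among the 55414 genes of the count table, and all 42 were among the 12851 genes with enough counts to be tested.

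Type I interferons bind a receptor made of Ifnar1 and Ifnar2, whose kinases Jak1 and Tyk2 activate the factor ISGF3, of which Stat2 and Irf9 are subunits. ISGF3 binds the interferon-stimulated response element (ISRE) in promoters. Interferon-gamma acts through Ifngr1 and Ifngr2 and the gamma-activated site (GAS) in promoters. Its targets include guanylate-binding proteins, immunity-related GTPases and Irf1, among others. Macrophages respond to both kinds of interferon, and also keep many of these genes on at a low level without infection.

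Primary bone marrow-derived macrophages (pBMDMs) from wildtype C57BL/6N mice, grown with M-CSF, were kept for 24 h in filtered supernatant taken from mouse embryonic fibroblasts (MEFs) of the Pfa1 line. In Pfa1 cells, 4-hydroxytamoxifen (4OHT) deletes Gpx4, the enzyme that removes lipid peroxides, and the cells die by ferroptosis. The supernatants came from untreated MEFs (ctrl) or from MEFs given 1 μM 4OHT (4OHT, the ferroptotic supernatant). Others came from MEFs given 4OHT and 1 μM Ferrostatin-1, which blocks ferroptosis (4OHT+Fer1), or Ferrostatin-1 alone (Fer1). Each of these groups had 3 replicates, and 2 further samples received fresh medium (medium). The macrophages themselves carried no deletion, and all supernatants came from the 1 fibroblast line. Whether agents given to the MEFs were carried over, and the base of the fresh medium, are not given in the sources used here. Medium had replicates 1 and 2 only, and a replicate number was taken as 1 mouse, as the study's methods put the mouse in the model. Where replicates do not come from separate mice, p-values measure only the spread between these samples, which may be technical. Values are CPM (counts scaled to a common library size with edgeR's TMM factors) of a 3′-end library, listed in the order of replicates 1, 2 and 3. A 3′ library counts transcript ends, so CPM does not scale with length, but levels of different genes are not compared below. A gene was "called" where its log2 fold change exceeded 1 in size and its adjusted p was under 0.05. The test was the quasi-likelihood test of edgeR, and p-values were adjusted after Benjamini and Hochberg over all 12851 genes.

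The total count per sample lay between 7823028 and 11052333, so that 3 counts, taken as the floor for counting error only, were worth between 0.272 and 0.381 CPM. Mitochondrial transcripts took 8.50% to 10.6% of the counts in the replicate 3 samples, 4.53% to 6.61% in replicates 1 and 2 of the supernatant groups, and 5.46% and 7.77% in medium. All 8 macrophage markers looked up (Adgre1, Itgam, Csf1r, Cd68, Fcgr1, Mertk, Lyz2, Mrc1) were tested, with summed levels from 19168 to 44187 CPM.

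Promoter sequence is shown first, because it is where the factors of this pathway bind. Of the 42 genes, 32 had a promoter window of 250 bases before to 50 bases after the transcription start in RefSeq (assembly GRCm38.p6). The ISRE core (GAAA, any 2 bases, GAAA, on either strand) was found in 19 of these 32 genes (59.4%), against 3.99% of the 27025 genes with a window and 3.44% of all 32851 windows. The GAS core (TTCNNNGAA, on either strand, the same letters on both) was found in 11 of 32 (34.4%), against 9.55% of all genes and 8.3% of all windows, and a GAS match may overlap an ISRE match. These are matches of letters and not measured binding.

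The stretches below lie upstream of the start and are written 5′ to 3′ on the strand of the gene, with the ISRE core, or its reverse complement, in capitals (for Irf1, the GAS core). Isg15, Rsad2, Ifit3, Gbp2, Gbp3, Gbp5, Igtp and Cxcl10 are examples, picked after their values were seen, of members with an ISRE core that passed the test against medium, and Irf1 for a GAS core without an ISRE core. Other members that passed and hold a core, such as Gbp7, Stat2 and Ifit2, are not printed. The Igtp stretch also holds a GAS core, left in lower case, that begins 45 bases before the start. Ifitm2 and Ifitm1 are shown because these members rose in 4OHT against ctrl. The Ifitm1 window held neither core, and its last 80 bases before the start are given.
Isg15 (chr4:156200855-156200916, minus strand): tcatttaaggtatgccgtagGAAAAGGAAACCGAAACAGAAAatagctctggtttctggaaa
Rsad2 (chr12:26456543-26456592, minus strand): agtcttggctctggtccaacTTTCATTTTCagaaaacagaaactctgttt
Ifit3 (chr19:34583353-34583436, plus strand): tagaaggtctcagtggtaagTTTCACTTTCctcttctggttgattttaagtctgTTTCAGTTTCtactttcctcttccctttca
Gbp2 (chr3:142620584-142620633, plus strand): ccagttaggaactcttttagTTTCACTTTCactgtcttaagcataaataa
Gbp3 (chr3:142559979-142560034, plus strand): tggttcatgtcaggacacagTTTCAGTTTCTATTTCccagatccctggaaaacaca
Gbp5 (chr3:142496749-142496798, plus strand): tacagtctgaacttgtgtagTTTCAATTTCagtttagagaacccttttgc
Igtp (chr11:58199502-58199551, plus strand): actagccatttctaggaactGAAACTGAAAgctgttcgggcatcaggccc
Cxcl10 (chr5:92349073-92349122, minus strand): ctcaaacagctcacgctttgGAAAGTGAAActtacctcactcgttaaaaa
Irf1 (chr11:53769904-53769952, plus strand): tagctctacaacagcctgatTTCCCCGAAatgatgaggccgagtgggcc
Ifitm2 (chr7:140955978-140956027, minus strand): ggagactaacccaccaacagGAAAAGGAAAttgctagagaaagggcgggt
Ifitm1 (chr7:140967996-140968075, plus strand): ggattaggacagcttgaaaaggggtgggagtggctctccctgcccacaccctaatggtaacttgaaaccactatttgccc

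The ISRE core occurred 3 times in overlapping copies in the Isg15 stretch and in 2 overlapping copies in that of Gbp3, while the 2 copies in Ifit3 did not overlap. Among the 14 members with a window that were called lower in ctrl than in medium, 8 held the ISRE core, and among the other 18 it was 11. The GAS core was in 5 of the 14 and in 6 of the 18.

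**Figure D1:**
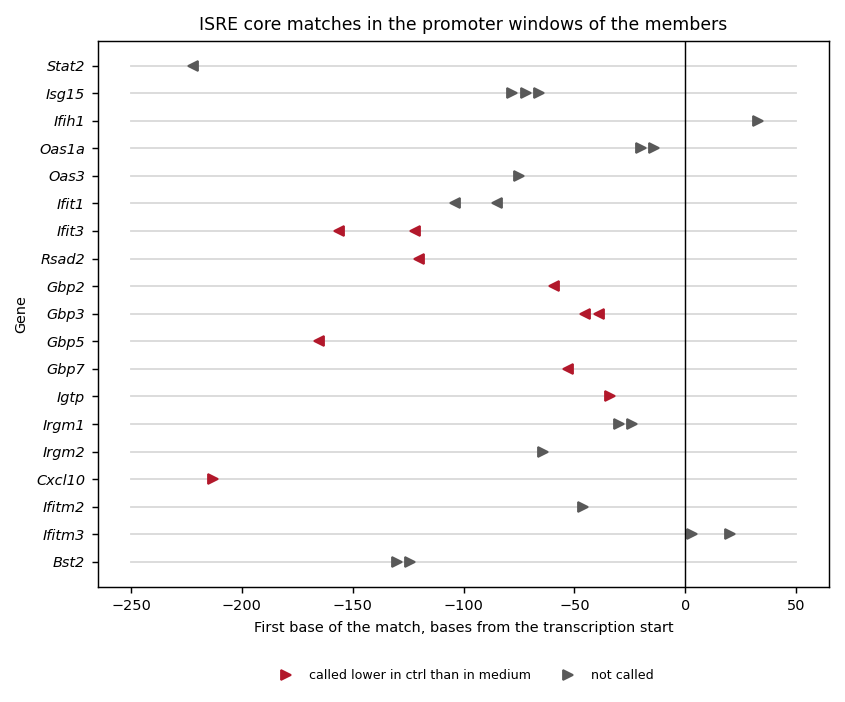
Position of the ISRE core in the promoter windows of the 19 members that hold it, in bases from the transcription start (x axis, 0 is the start), 1 line per gene. Triangles point right for a match on the strand of the gene and left for a match on the other strand, and red marks members called lower in ctrl than in medium; 17 of the 19 genes have their matches before the start, and those of Ifih1 and Ifitm3 lie after it.

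Most calls among the members came from fresh medium against MEF supernatant, tested for ctrl and 4OHT alone. Fer1 and 4OHT+Fer1 were not tested against medium. Differences between replicates of a group could be larger. Replicate 3 minus replicate 1 had a median difference in log2 CPM across the members of -1.75 in ctrl and -2.24 in 4OHT. All 42 had a negative log2 fold change in ctrl against medium, with a median of -0.91 (range -2.54 to -0.13), while the median of all 12851 genes was -0.01 and 50.8% of them were negative. In that comparison 18 of 42 members were called lower and 0 higher, against 3.69% of all genes called lower. At an adjusted p alone, 22 were lower, against 5.58% of all genes. In the ferroptotic supernatant against the same medium samples, 19 members were called lower and 0 higher (1.64% of all genes were called lower). At an adjusted p alone 21 were lower (2.34% of all genes), and the median log2 fold change was -1.13, with 40 negative and 2 positive (Ifitm1 and Ifitm2). Both comparisons share the 2 medium samples and are not independent of each other.

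The order was also compared within replicate numbers. For 33 of the 42 genes, each medium sample lay above all 4 supernatant samples of its own replicate number, a pattern found for 15.4% of all genes tested. The exceptions were Irf9, Trim25, Oas1a, Irgm1, Bst2 and the 4 Ifitm genes. Within replicate numbers, the median difference in log2 CPM of medium over ctrl across the members was 0.97 in replicate 1 and 0.99 in replicate 2. The summed level of the 42 genes was 24230 and 16053 CPM in medium. It was 12009, 9571 and 3944 CPM in ctrl, 11700, 8708 and 5751 CPM in Fer1, 10672, 10431 and 6111 CPM in 4OHT+Fer1, and 12110, 9134 and 3146 CPM in 4OHT. In bulk samples, fewer cells that express a gene and less RNA per cell cannot be told apart, and neither can substances that MEFs add to the medium and substances that they use up.

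These counts depend on medium samples that number only 2 and on the replicate block. Without replicate 1 or without replicate 2, medium had 1 sample, and far fewer members were called lower in ctrl than in medium. That loss of a sample applied to all genes, so the drop cannot be read as particular to the members. Without replicate 3, which medium lacks, 19 members were called lower in ctrl. In that fit 37 members had an unadjusted p under 0.05 by edgeR, against 25.5% of all genes. In 4OHT against medium, 0 members were called without replicate 1 or without replicate 2, where 33 and 28 had an unadjusted p under 0.05 (7.83% and 7.74% of all genes), and 17 were called without replicate 3. Without the block, 3 members were called in ctrl against medium (Irf1, Gbp2 and Gbp4, with 23 at an unadjusted p under 0.05, against 16.2% of all genes) and 0 in 4OHT against medium (25 at an unadjusted p under 0.05, against 10.9% of all genes).

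**Figure D2:**
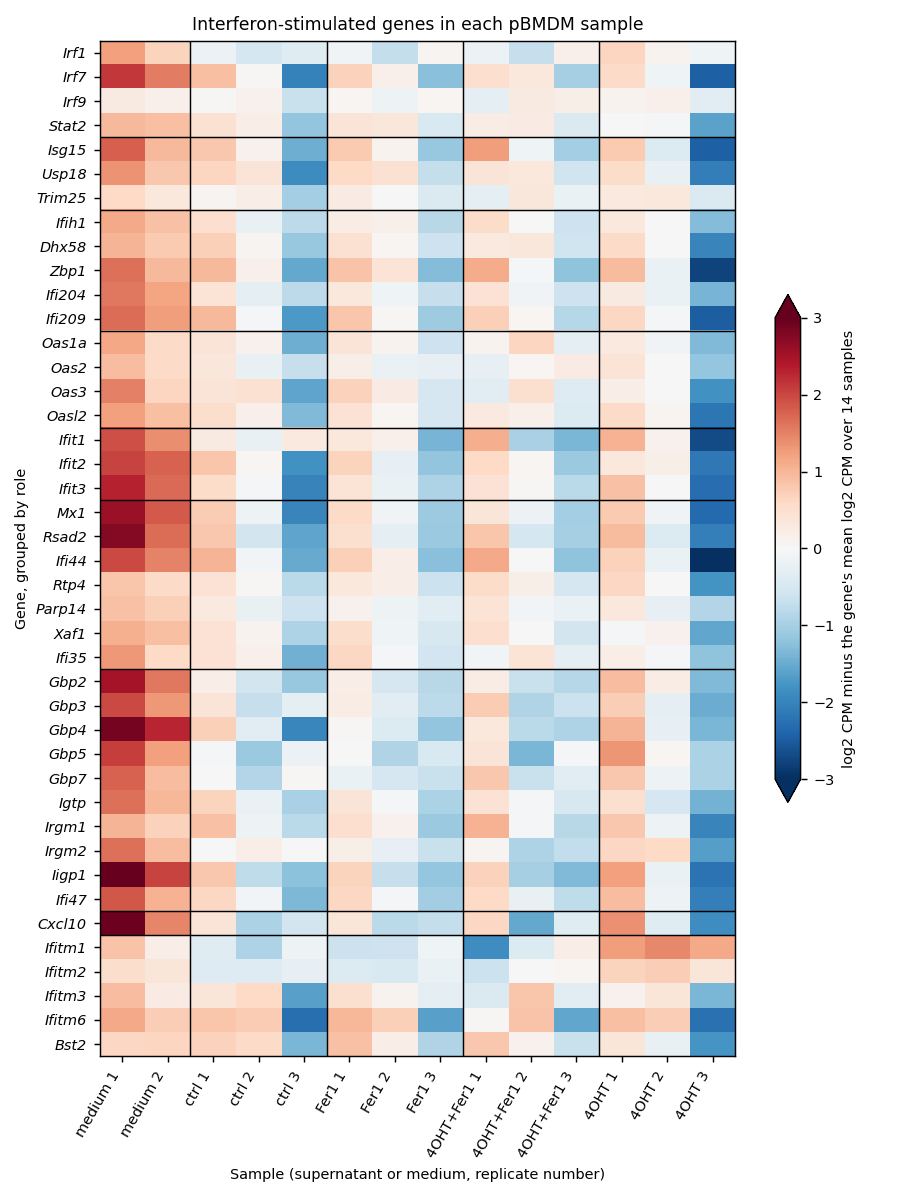
Level of the 42 genes (rows, grouped by role) in each of the 14 samples (columns, by group and replicate), as log2 CPM minus the mean of the gene over the 14 samples; red is above and blue below that mean, and the colour scale ends at 3 in both directions. The 2 medium columns are red for most genes, the replicate 3 columns are mostly blue, and the rows of Ifitm1 and Ifitm2 are red in all 3 4OHT columns.

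Among the interferon-inducible GTPases, which act on the membranes around intracellular microbes, 8 of 10 were called lower in ctrl than in medium and 6 of 10 in 4OHT (3.69% and 1.64% of all genes). Gbp2, a guanylate-binding protein that coats pathogen vacuoles, had 341 and 180.4 CPM in medium, 68.6, 41.3 and 27.2 in ctrl, 68.9, 42.6 and 33.8 in Fer1, 70.4, 38.1 and 33.3 in 4OHT+Fer1 and 114, 70.0 and 24.0 in 4OHT. Every medium value of Gbp2 exceeded every supernatant value, and its log2 fold change was -2.21 ± 0.25 (SE), adjusted p 0.000190 in ctrl and -1.70 ± 0.24 (SE), adjusted p 0.00348 in 4OHT, both against medium by edgeR's quasi-likelihood test. Gbp4 had 31.2 and 20.7 CPM in medium, 6.99, 3.42 and 1.10 in ctrl, 4.36, 3.23 and 1.87 in Fer1, 5.33, 2.44 and 2.25 in 4OHT+Fer1 and 8.64, 3.63 and 1.65 in 4OHT. Its medium values lay above all supernatant values, and its fold change was the largest of the 42 in ctrl against medium (-2.54 ± 0.32 (SE), adjusted p 0.000377 by edgeR), with -2.26 ± 0.32 (SE), adjusted p 0.00334 in 4OHT. Gbp4 overlaps Gbp8 and Gbp9 on its strand in the GENCODE M21 annotation, and its counts were not whole in 13 of 14 samples, so reads may be shared between these genes.

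Gbp5, which promotes inflammasome assembly, had 88.8 and 48.9 CPM in medium, 20.6, 9.75 and 18.4 in ctrl, 20.7, 11.3 and 15.3 in Fer1, 27.3, 8.18 and 20.1 in 4OHT+Fer1 and 52.4, 21.9 and 10.9 in 4OHT. Here 4OHT replicate 1 lay above medium replicate 2, and ctrl but not 4OHT passed the test against medium (-2.03 ± 0.40 (SE), adjusted p 0.00566 and -1.30 ± 0.38 (SE), adjusted p 0.0791 by edgeR). Gbp3 had 174 and 108 CPM in medium, 57.6, 27.2 and 35.9 in ctrl, 51.7, 35.4 and 25.4 in Fer1, 74.3, 23.7 and 28.3 in 4OHT+Fer1 and 74.0, 36.3 and 15.6 in 4OHT. Gbp7 had 603 and 335 CPM in medium, 176, 96.8 and 180.2 in ctrl, 154, 125 and 111 in Fer1, 309.6, 112 and 142 in 4OHT+Fer1 and 311, 159 and 91.5 in 4OHT. For Gbp3 the medium samples were above every supernatant sample, and for Gbp7 the groups came close, with 4OHT and 4OHT+Fer1 of replicate 1 just under medium replicate 2. The log2 fold changes against medium by edgeR were -1.57 ± 0.32 (SE), adjusted p 0.00788 in ctrl and -1.66 ± 0.31 (SE), adjusted p 0.0107 in 4OHT for Gbp3, and -1.46 ± 0.34 (SE), adjusted p 0.0161 and -1.26 ± 0.33 (SE), adjusted p 0.0502 for Gbp7. DESeq2 called both Gbp5 and Gbp7 lower in 4OHT than in medium.

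Of the immunity-related GTPases, Iigp1 (Irga6), which disrupts the vacuoles of parasites, had 497 and 229 CPM in medium, 98.8, 33.6 and 24.1 in ctrl, 89.8, 35.3 and 25.3 in Fer1, 92.0, 28.5 and 22.7 in 4OHT+Fer1 and 134, 49.6 and 12.1 in 4OHT. Igtp (Irgm3), a regulator of that family, had 214 and 135 CPM in medium, 109, 59.2 and 34.9 in ctrl, 88.6, 65.7 and 35.5 in Fer1, 91.5, 66.2 and 48.4 in 4OHT+Fer1 and 95.3, 48.1 and 25.4 in 4OHT. Both genes were higher in the medium samples than in any supernatant sample. The log2 fold changes by edgeR were -2.47 ± 0.31 (SE), adjusted p 0.000377 in ctrl and -2.34 ± 0.30 (SE), adjusted p 0.00223 in 4OHT for Iigp1, and -1.12 ± 0.19 (SE), adjusted p 0.00267 and -1.42 ± 0.19 (SE), adjusted p 0.00309 for Igtp. Ifi47 (Irgd) had 706 and 397 CPM in medium, 299, 182 and 76.2 in ctrl, 297, 185 and 93.5 in Fer1, 294, 166 and 115 in 4OHT+Fer1 and 366, 173 and 46.9 in 4OHT, with log2 fold changes of -1.21 ± 0.27 (SE), adjusted p 0.0124 in ctrl and -1.30 ± 0.26 (SE), adjusted p 0.0160 in 4OHT. Igtp and Irgm2 overlap on the same strand in GENCODE M21, as do Ifi47 and Olfr56. Irgm1 and Irgm2 did not pass in either comparison (log2 fold changes -0.38 and -0.95 in ctrl, -0.73 and -1.03 in 4OHT).

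Among the other effectors, 3 of 7 were called lower in ctrl and 4 of 7 in 4OHT (3.69% and 1.64% of all genes). Rsad2 (viperin), which makes a chain-terminating nucleotide that stops viral polymerases, had 2842 and 1364 CPM in medium, 744, 290.0 and 143 in ctrl, 596, 346 and 195 in Fer1, 757, 294 and 212 in 4OHT+Fer1 and 817, 319.8 and 103 in 4OHT. Medium was above all 12 supernatant samples, with log2 fold changes of -2.12 ± 0.25 (SE), adjusted p 0.000263 in ctrl and -2.15 ± 0.25 (SE), adjusted p 0.00116 in 4OHT by edgeR. Mx1, of the dynamin-like GTPase family, had 371 and 221 CPM in medium, 104, 55.7 and 15.7 in ctrl, 91.8, 56.8 and 28.7 in Fer1, 79.6, 54.6 and 30.3 in 4OHT+Fer1 and 106, 57.3 and 12.3 in 4OHT. Its log2 fold changes were -2.05 ± 0.30 (SE), adjusted p 0.000900 in ctrl and -2.09 ± 0.30 (SE), adjusted p 0.00343 in 4OHT, again with no overlap between medium and the supernatants. Ifi44 had 985 and 695 CPM in medium, 505, 235 and 86.7 in ctrl, 407, 287 and 105 in Fer1, 547, 248 and 108 in 4OHT+Fer1 and 399, 217 and 31.3 in 4OHT, with log2 fold changes of -1.22 ± 0.31 (SE), adjusted p 0.0241 in ctrl and -1.77 ± 0.30 (SE), adjusted p 0.00696 in 4OHT.

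Parp14, a mono-ADP-ribosyltransferase, had 960.1 and 845 CPM in medium, 641, 445 and 338 in ctrl, 569, 467 and 408 in Fer1, 689, 491 and 453 in 4OHT+Fer1 and 642, 435 and 284 in 4OHT. Its medium values were the highest of all samples, but by less than for Rsad2 or Mx1, and its log2 fold changes of -0.79 ± 0.17 (SE), adjusted p 0.0114 in ctrl and -0.88 ± 0.17 (SE), adjusted p 0.0141 in 4OHT passed the adjusted p by edgeR but not the fold. Xaf1, a promoter of apoptosis, had 195 and 176 CPM in medium, 126, 99.8 and 49.5 in ctrl, 135, 86.1 and 67.3 in Fer1, 132, 93.0 and 63.8 in 4OHT+Fer1 and 91.9, 103 and 31.6 in 4OHT. It passed in 4OHT (-1.08 ± 0.23 (SE), adjusted p 0.0205) and not in ctrl (-0.76 ± 0.23 (SE), adjusted p 0.0566). For genes that passed in 1 of these comparisons alone, the test of the difference itself is 4OHT against ctrl, which of these Ifitm2 alone passed. Rtp4 and Ifi35 passed in neither comparison, with log2 fold changes against medium of -0.41 and -0.85 in ctrl and -0.62 and -0.95 in 4OHT.

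Ifit proteins bind viral RNA and hold back its translation. Ifit3 had 1565 and 1028 CPM in medium, 467, 307 and 78.8 in ctrl, 419.6, 278 and 168 in Fer1, 429.7, 323 and 182 in 4OHT+Fer1 and 579, 315 and 64.9 in 4OHT. Ifit2 had 464 and 385 CPM in medium, 200.1, 118 and 32.1 in ctrl, 179.5, 94.8 and 49.7 in Fer1, 173, 118 and 52.6 in 4OHT+Fer1 and 141, 128 and 25.7 in 4OHT. Both were higher in medium than in every supernatant sample, with log2 fold changes of -1.91 ± 0.35 (SE), adjusted p 0.00350 in ctrl and -1.83 ± 0.34 (SE), adjusted p 0.0107 in 4OHT for Ifit3 and of -1.58 ± 0.26 (SE), adjusted p 0.00193 and -1.80 ± 0.26 (SE), adjusted p 0.00348 for Ifit2 by edgeR. Ifit1, which recognises RNA without cap methylation, had 1005 and 686 CPM in medium, 315, 225 and 322 in ctrl, 327, 288 and 99.8 in Fer1, 552, 134 and 101 in 4OHT+Fer1 and 543, 286 and 40.5 in 4OHT. Although both medium values of Ifit1 were again the highest, it did not pass (-0.87 ± 0.65 (SE), adjusted p 0.468 in ctrl, -1.48 ± 0.59 (SE), adjusted p 0.229 in 4OHT), and ctrl replicate 3 was as high as ctrl replicate 1, unlike in most other members. Ifit3 has a near copy, Ifit3b, and counts of Ifit3 were not whole in any of the 14 samples, so reads may be split between them.

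Cxcl10, the ligand of Cxcr3 that attracts T cells, had 484 and 174 CPM in medium, 81.7, 32.5 and 42.6 in ctrl, 80.2, 35.7 and 38.0 in Fer1, 96.6, 21.8 and 48.5 in 4OHT+Fer1 and 163, 48.6 and 17.3 in 4OHT. Medium replicate 1 stood far above the rest, and medium replicate 2 was only slightly above 4OHT replicate 1. The log2 fold changes were -2.35 ± 0.43 (SE), adjusted p 0.00369 in ctrl and -2.07 ± 0.41 (SE), adjusted p 0.0148 in 4OHT, both called by edgeR. Cxcl10 overlaps Art3 on the opposite strand, and whether counting used the strand is not given in the sources used here.

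**Figure D3:**
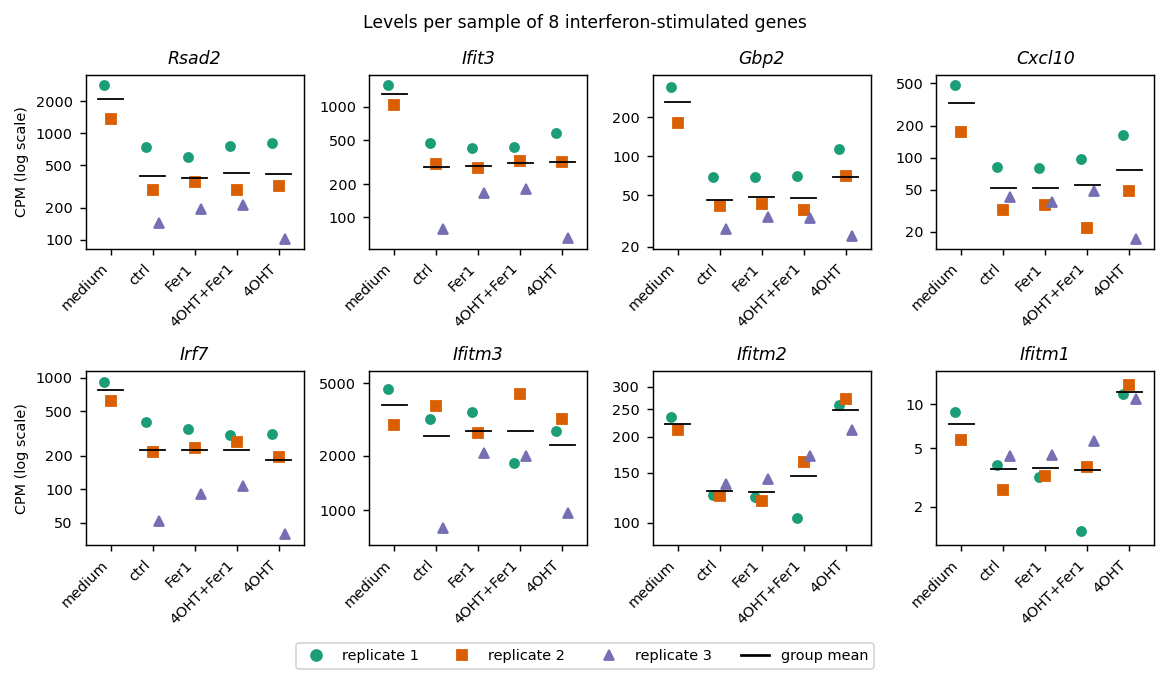
CPM on a logarithmic axis of 8 members in each sample, by group (x axis), with a symbol and colour for each replicate number and a horizontal line at the group mean; the axes start at different values. For Rsad2, Ifit3, Gbp2, Cxcl10 and Irf7 the 2 medium samples lie above all supernatant samples, and for Ifitm1 and Ifitm2 the 3 4OHT samples lie above the 9 other supernatant samples.

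Of the transcription factors, Irf7, which amplifies the type I response and is itself induced by it, had 925 and 620.1 CPM in medium, 400.0, 218 and 51.8 in ctrl, 344, 235 and 89.5 in Fer1, 304, 264 and 107 in 4OHT+Fer1 and 316, 195 and 39.1 in 4OHT. Irf1, an early target of interferon-gamma, had 219 and 149 CPM in medium, 83.2, 64.4 and 72.0 in ctrl, 86.4, 56.8 and 98.5 in Fer1, 83.2, 57.7 and 104 in 4OHT+Fer1 and 146, 100 and 85.4 in 4OHT. In both genes medium was above all supernatant samples. Irf7 was called lower in ctrl (-1.50 ± 0.27 (SE), adjusted p 0.00392) and in 4OHT (-1.79 ± 0.27 (SE), adjusted p 0.00446), and Irf1 in ctrl alone (-1.36 ± 0.23 (SE), adjusted p 0.00210, against -0.77 ± 0.22 (SE), adjusted p 0.0824 in 4OHT) by edgeR. Stat2, a subunit of ISGF3, had 357 and 338 CPM in medium, 249.9, 209 and 79.6 in ctrl, 237, 228 and 132 in Fer1, 211, 216 and 134 in 4OHT+Fer1 and 184, 173 and 59.9 in 4OHT, and was called in 4OHT (-1.09 ± 0.22 (SE), adjusted p 0.0148) but not in ctrl (-0.72 ± 0.22 (SE), adjusted p 0.0540). Irf9, the DNA-binding subunit of ISGF3, differed little, with log2 fold changes of -0.29 in ctrl and -0.16 in 4OHT.

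Of Isg15 and its modifiers, Isg15, a ubiquitin-like protein that is attached to other proteins, had 301 and 171 CPM in medium, 151, 94.3 and 31.5 in ctrl, 150.2, 93.0 and 39.2 in Fer1, 207, 79.1 and 42.5 in 4OHT+Fer1 and 151, 64.8 and 15.9 in 4OHT. Medium replicate 2 lay below 4OHT+Fer1 replicate 1, so the groups overlapped. Isg15 passed the adjusted p in ctrl against medium (-0.93 ± 0.25 (SE), adjusted p 0.0313) and was called in 4OHT (-1.38 ± 0.24 (SE), adjusted p 0.00843) by edgeR. Usp18, which removes Isg15 and dampens the receptor, and Trim25, a ubiquitin ligase, did not pass by edgeR, with log2 fold changes in ctrl of -0.76 and -0.47. DESeq2 called Usp18 lower in 4OHT than in medium. Trim25 had 205 and 168 CPM in medium, 143, 156 and 67.0 in ctrl, 160.2, 135 and 100.5 in Fer1, 111, 172 and 118 in 4OHT+Fer1 and 167, 170.4 and 101 in 4OHT, and medium and supernatant samples overlapped.

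The sensors gave 2 of 5 called lower in ctrl and 3 of 5 in 4OHT (3.69% and 1.64% of all genes). Ifi204, a DNA-binding protein of the HIN200 family, had 1169 and 887 CPM in medium, 522, 326 and 227 in ctrl, 489, 360.3 and 241 in Fer1, 528, 360.5 and 254 in 4OHT+Fer1 and 474, 338 and 148 in 4OHT. Ifi209, of the same family, had 559 and 414 CPM in medium, 343, 171 and 53.2 in ctrl, 311, 180.3 and 83.4 in Fer1, 289, 182 and 97.4 in 4OHT+Fer1 and 269.6, 172 and 31.5 in 4OHT. Both were highest in medium, with log2 fold changes by edgeR of -1.27 ± 0.18 (SE), adjusted p 0.000711 in ctrl and -1.49 ± 0.17 (SE), adjusted p 0.00116 in 4OHT for Ifi204, and -1.08 ± 0.29 (SE), adjusted p 0.0335 and -1.40 ± 0.29 (SE), adjusted p 0.0172 for Ifi209. The counts of both were not whole in any sample, and this family has near copies. Ifih1 (MDA5), a sensor of long double-stranded RNA, had 332 and 279 CPM in medium, 215, 129 and 87.2 in ctrl, 176, 167 and 84.4 in Fer1, 219.7, 151 and 98.2 in 4OHT+Fer1 and 188, 148 and 61.0 in 4OHT. Zbp1, a sensor of Z-form nucleic acids that can trigger necroptosis, had 214 and 132 CPM in medium, 133, 75.4 and 23.4 in ctrl, 122, 90.4 and 27.5 in Fer1, 146, 66.0 and 29.3 in 4OHT+Fer1 and 129.8, 59.0 and 9.87 in 4OHT. Medium was above every supernatant sample for Ifih1, and for Zbp1 medium replicate 2 lay just below ctrl and 4OHT+Fer1 of replicate 1. Ifih1 passed the adjusted p in ctrl (-0.82 ± 0.18 (SE), adjusted p 0.0138) and in 4OHT (-0.98 ± 0.18 (SE), adjusted p 0.0105), and Zbp1 was called in 4OHT (-1.16 ± 0.27 (SE), adjusted p 0.0319) but not in ctrl (-0.72 ± 0.28 (SE), adjusted p 0.127), by edgeR. Dhx58 (LGP2) passed in neither (-0.55 and -0.84).

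The oligoadenylate synthetases, which activate RNase L, gave 0 of 4 called by edgeR in either comparison, with log2 fold changes from -0.88 to -0.77 in ctrl and from -1.19 to -0.77 in 4OHT. All 4 had an unadjusted p under 0.05 in both, as did 24% and 15.8% of all genes. Oasl2 had 615 and 491 CPM in medium, 381, 293 and 106 in ctrl, 358, 275 and 186 in Fer1, 325, 292 and 198 in 4OHT+Fer1 and 391, 278 and 58.8 in 4OHT. Oas3 had 338 and 183 CPM in medium, 155, 163 and 39.2 in ctrl, 190.1, 140.0 and 82.7 in Fer1, 95.6, 166 and 89.8 in 4OHT+Fer1 and 136, 117 and 33.7 in 4OHT. Both medium values of Oasl2 exceeded all supernatant values, whereas for Oas3 Fer1 replicate 1 lay above medium replicate 2. In ctrl against medium their log2 fold changes were -0.82 ± 0.34 (SE), adjusted p 0.157 for Oasl2 and -0.88 ± 0.37 (SE), adjusted p 0.164 for Oas3 by edgeR. DESeq2 called Oas3 lower in 4OHT than in medium.

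Of the membrane restriction factors, which keep viruses from entering or leaving the cell, 0 of 5 were called against medium. Ifitm3, which blocks fusion of virus with endosomes, had 4689 and 2941 CPM in medium, 3181, 3732 and 801 in ctrl, 3494, 2669 and 2069 in Fer1, 1832, 4392 and 2002 in 4OHT+Fer1 and 2739, 3192 and 967 in 4OHT. Medium and supernatant samples overlapped, with log2 fold changes of -0.41 ± 0.41 (SE), adjusted p 0.609 in ctrl and -0.51 ± 0.41 (SE), adjusted p 0.658 in 4OHT. Ifitm6 and Bst2 (tetherin) likewise overlapped between medium and ctrl (-0.26 and -0.13).

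The question of the study, whether ferroptotic supernatant changes macrophages in another way than supernatant of living fibroblasts, is addressed for these genes by 4OHT against ctrl. Here 1 of 42 members was called higher, Ifitm1, against 0.35% of all genes, and 0 lower. At an adjusted p alone, 2 were higher, Ifitm1 and Ifitm2, against 0.482% of all genes. The median log2 fold change of the 42 was -0.10 (range -0.61 to 1.77), with 28 negative and 14 positive, where 49.2% of all genes were negative. By unadjusted p, 5 of the 42 were under 0.05, a share near that of all genes (10.8%). Within replicate numbers the median difference in log2 CPM of 4OHT from ctrl was 0.04, 0.03 and -0.46.

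Ifitm1, a short transmembrane protein of the cell surface, had 8.89 and 5.67 CPM in medium, 3.85, 2.61 and 4.42 in ctrl, 3.17, 3.23 and 4.52 in Fer1, 1.36, 3.72 and 5.63 in 4OHT+Fer1 and 11.8, 13.5 and 10.9 in 4OHT, from 13 to 149 counts per sample. All 3 4OHT samples lay above all 9 other supernatant samples, as 0.965% of all genes did, and the medium samples stood in between. The log2 fold change was 1.77 ± 0.37 (SE), adjusted p 0.0377 against ctrl and 1.84 ± 0.37 (SE), adjusted p 0.0361 against 4OHT+Fer1 by edgeR, and the differences in log2 CPM from ctrl within replicates were 1.56, 2.28 and 1.26. Against medium, 4OHT did not pass (0.61 ± 0.41 (SE), adjusted p 0.559), and neither did ctrl (-1.17 ± 0.42 (SE), adjusted p 0.103).

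Ifitm2, which restricts viruses that enter through endosomes, had 234 and 211 CPM in medium, 126, 125 and 137 in ctrl, 123, 119 and 142 in Fer1, 104, 163 and 171 in 4OHT+Fer1 and 258, 272 and 212 in 4OHT. The 4OHT samples again lay above all 9 other supernatant samples, and they overlapped with medium. Against ctrl the log2 fold change was 0.95 ± 0.18 (SE), adjusted p 0.0270 by edgeR, with differences in log2 CPM within replicates of 1.04, 1.13 and 0.63, and against 4OHT+Fer1 it was 0.78 ± 0.18 (SE), adjusted p 0.0643, while DESeq2 gave an adjusted p of 0.00639 there. Ifitm2 was lower in ctrl than in medium (-0.83 ± 0.21 (SE), adjusted p 0.0223 by edgeR), while 4OHT against medium gave 0.12 ± 0.21 (SE), adjusted p 0.882. Ifitm3, in the same gene cluster, had a log2 fold change of -0.10 ± 0.37 (SE), adjusted p 0.957 in 4OHT against ctrl, and Ifitm6 of 0.03 ± 0.25 (SE), adjusted p 0.984. Ifitm2 overlaps the gene model Gm45717 on its own strand.

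These results rest on few samples. Ifitm1 kept its direction but was not called in 4OHT against ctrl without replicate 1 (log2 fold change 1.85, adjusted p 0.214 by edgeR), without replicate 2 (1.50, adjusted p 0.689 by edgeR), without the replicate block (1.73, adjusted p 0.134 by edgeR) or in a fit of the 2 groups alone (1.75, adjusted p 0.254 by edgeR). Ifitm2 did not pass under the same settings, with log2 fold changes from 0.86 to 0.94.

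The largest differences from ctrl in the other roles did not pass. They were those of Irf1 (0.59 ± 0.20 (SE), adjusted p 0.251), Isg15 (-0.45 ± 0.22 (SE), adjusted p 0.500), Zbp1 (-0.44 ± 0.25 (SE), adjusted p 0.589), Oas3 (-0.31 ± 0.33 (SE), adjusted p 0.841), Ifit1 (-0.61 ± 0.57 (SE), adjusted p 0.808), Ifi44 (-0.55 ± 0.27 (SE), adjusted p 0.514), Gbp5 (0.73 ± 0.36 (SE), adjusted p 0.503) and Cxcl10 (0.29 ± 0.38 (SE), adjusted p 0.871), all by edgeR. Gbp5 was higher in 4OHT than in ctrl in replicates 1 and 2 and lower in replicate 3. Without replicate 3, 3 members were called higher in 4OHT than in ctrl: Ifitm1, Ifitm2 and Gbp5 (log2 fold change 1.25, adjusted p 0.0252 by edgeR). In that fit Irf1 (0.71, adjusted p 0.0462 by edgeR) and Gbp2 (0.74, adjusted p 0.0432 by edgeR) also passed the adjusted p.

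**Figure D4:**
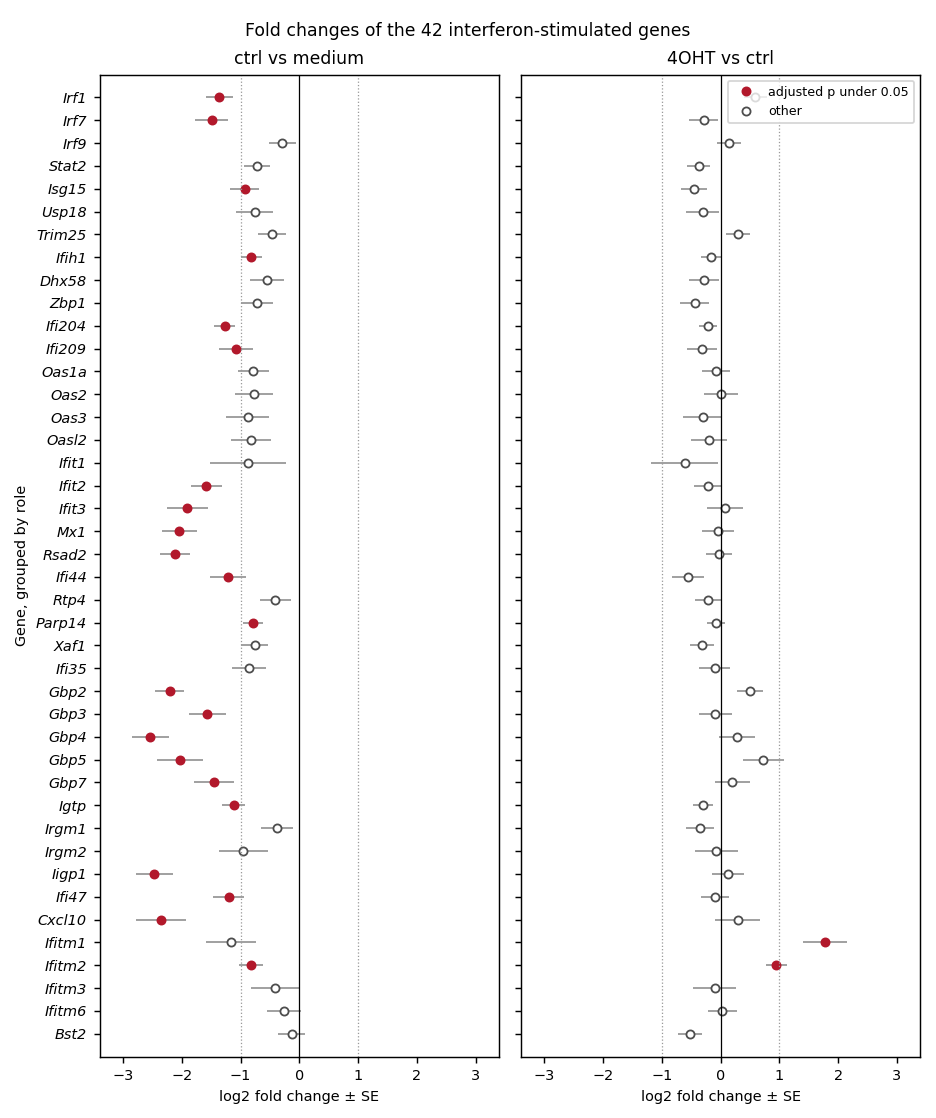
Log2 fold change (x axis, with standard error) of the 42 members in ctrl against medium (left) and in 4OHT against ctrl (right), with filled red points for an adjusted p under 0.05 and dotted lines at a log2 fold change of 1 in each direction. On the left all 42 points lie below 0, and on the right only Ifitm1 and Ifitm2 are red.

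In 4OHT+Fer1 the MEFs received 4OHT while ferroptosis was blocked, but this supernatant differs from 4OHT in Ferrostatin-1 as well as in cell death. The study reports that Ferrostatin-1 on its own already altered how much prostaglandin living MEFs gave off. Comparing 4OHT with 4OHT+Fer1 therefore cannot by itself separate ferroptosis from Ferrostatin-1. The interaction given below also uses the Fer1 group, and no member passed it. In 4OHT against 4OHT+Fer1, 1 member was called higher, Ifitm1, and 0 lower, and 0.296% of all genes were called higher there. The median log2 fold change was -0.31 (range -0.73 to 1.84), with 11 of the 42 at an unadjusted p under 0.05, against 11.8% of all genes. Apart from Ifitm1, none of the 11 passed the adjusted p. Ifitm1 was lowest in 4OHT+Fer1 replicate 1, with 13 counts, and was not called there without replicate 1 (log2 fold change 1.45, adjusted p 0.369 by edgeR) or without replicate 2 (1.85, adjusted p 0.558 by edgeR). Without the block it was not called either (1.75, adjusted p 0.108 by edgeR). Without replicate 3, Ifitm1, Ifitm2 and Gbp5 were called, and 8 of the 42 had an unadjusted p under 0.05 by edgeR, against 18.4% of all genes.

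Among the 3 supernatants without ferroptosis, no difference was detected in any single member. In 4OHT+Fer1 against ctrl, Fer1 against ctrl and 4OHT+Fer1 against Fer1, edgeR called 0 of 42, with 0 at an unadjusted p under 0.05. DESeq2 called 0 as well. Of all 12851 genes, edgeR called 4, 0 and 3 in these comparisons, and 554, 146 and 266 had an unadjusted p under 0.05. The absence of calls is therefore not particular to the members. The log2 fold changes of the members ranged from -0.68 (Ifit1) to 0.50 (Oas1a), from -0.62 (Ifit1) to 0.35 (Usp18) and from -0.26 (Irgm2) to 0.40 (Gbp7). Positive values were found for 36, 32 and 29 of the 42, and for 6947, 6355 and 6663 of all 12851 genes. Within replicates 1, 2 and 3 the median difference in log2 CPM from ctrl was -0.11, 0.06 and 0.53 in 4OHT+Fer1. In Fer1 it was -0.09, 0.04 and 0.44. The difference between the 4OHT effects without and with Ferrostatin-1 was tested as an interaction. No member passed by edgeR (0 called, 2 of 42 at an unadjusted p under 0.05, against 6.2% of all genes) or by DESeq2 (0 called), and the estimates for Ifitm1 and Ifitm2 were 1.84 ± 0.53 (SE), adjusted p 0.410 and 0.77 ± 0.26 (SE), adjusted p 0.569 on the log2 scale.

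Replicates of a group differed widely in these genes. Replicate 3 was the lowest of the 3 for 33 of 42 genes in ctrl, 36 in Fer1, 30 in 4OHT+Fer1 and 42 in 4OHT, where it was lowest for 40.5%, 40.1%, 31.8% and 39.7% of all genes. The median difference in log2 CPM across the members, replicate 3 minus replicate 1, was -1.75 in ctrl, -1.07 in Fer1, -1.06 in 4OHT+Fer1 and -2.24 in 4OHT, and replicate 2 minus replicate 1 it lay between -0.62 and -0.43 in the 5 groups. Irf7 in 4OHT, for example, stood at 316 CPM in replicate 1 and 39.1 CPM in replicate 3, and Ifi44 at 399 and 31.3 CPM. Irf1, Ifitm1, Ifitm2, Gbp5 and Cxcl10 were not lowest in replicate 3 of ctrl, Fer1 or 4OHT+Fer1. The share of mitochondrial counts was highest in replicate 3 of each supernatant group, and its part in these levels was not tested. With 1 sample per group and number, this is a description of these samples.

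Transcripts of the interferon genes looked up were near absent from these libraries, made after 24 h. Over all 14 samples, the 11 interferon genes looked up (Ifnb1, Ifna1, Ifna2, Ifna4, Ifna5, Ifna13, Ifne, Ifnk, Ifng, Ifnl2 and Ifnl3) had 1 count in all, of Ifnb1 in medium replicate 2, and the other 10 were at 0, which allows up to the floor of 3 counts in a sample. Among the receptor genes, Ifnar1 stood at 25.5 and 30.3 CPM in medium, 20.9, 25.0 and 33.3 in ctrl, 22.1, 21.2 and 31.3 in Fer1, 20.5, 19.5 and 23.7 in 4OHT+Fer1 and 25.0, 28.7 and 28.2 in 4OHT. Ifnar2 stood at 317 and 316 CPM in medium, 222, 195 and 232 in ctrl, 217, 215 and 263 in Fer1, 213, 223 and 285 in 4OHT+Fer1 and 269, 236 and 258 in 4OHT, and was lower in ctrl than in medium (-0.62 ± 0.15 (SE), adjusted p 0.0160 by edgeR). Of the 5 receptor genes tested, only Ifnar2 passed, and only in ctrl against medium. Ifngr1 lay between 211 and 322 CPM and Ifngr2 between 61.6 and 127 CPM, Il10rb between 112 and 181 CPM, and Ifnlr1, the lambda receptor, was at or under 0.304 CPM and not tested.

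Of the signalling genes, Irf5, an activator of inflammatory genes, had log2 fold changes against medium of -1.42 ± 0.29 (SE), adjusted p 0.00821 in ctrl and -1.18 ± 0.29 (SE), adjusted p 0.0392 in 4OHT by edgeR. Irf2, which opposes Irf1 at shared sites, had -1.03 ± 0.15 (SE), adjusted p 0.000981 in ctrl and -0.77 ± 0.15 (SE), adjusted p 0.0144 in 4OHT by edgeR. Tyk2 passed in ctrl (-0.64 ± 0.15 (SE), adjusted p 0.0154 by edgeR) and Jak1, with 365 to 530 CPM, in neither. Of the 6 inhibitors, Socs1, which blocks the receptor kinases, was called lower in ctrl (-1.69 ± 0.46 (SE), adjusted p 0.0352 by edgeR), at 8.38 and 4.34 CPM in medium and 2.43, 1.21 and 1.10 CPM in ctrl.

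A longer list of 104 tested genes of the pathway, which includes these and 67 other induced genes but none of the 42, was described beside them. In ctrl against medium 32 were called lower and 0 higher, with a median of -0.73, and 46 were lower at an adjusted p alone. Of all genes, 3.69% were called lower there and 5.58% were lower at an adjusted p alone. In 4OHT against medium 30 were called lower (1.64% of all genes were) and 0 higher, with a median of -0.80. Those with the smallest adjusted p in ctrl were Ifi205 (-3.54 ± 0.30 (SE), adjusted p 4.36e-05), a HIN200 protein, Ifit1bl1 (-3.23 ± 0.30 (SE), adjusted p 6.88e-05) and Ifit3b (-2.45 ± 0.31 (SE), adjusted p 0.000398), both of the Ifit family, and Cmpk2 (-1.70 ± 0.25 (SE), adjusted p 0.000905), a nucleotide kinase that neighbours Rsad2, by edgeR. In 4OHT they were Ifi205 (-2.67 ± 0.29 (SE), adjusted p 0.000956), Ifit1bl1 (-2.59 ± 0.29 (SE), adjusted p 0.00106), Phf11d (-1.75 ± 0.22 (SE), adjusted p 0.00172) and Epsti1 (-1.11 ± 0.15 (SE), adjusted p 0.00255), again by edgeR. Ifi205 had 128 and 50.3 CPM in medium, 10.1, 4.12 and 3.53 in ctrl, 5.85, 4.90 and 2.53 in Fer1, 12.5, 3.29 and 3.28 in 4OHT+Fer1 and 23.1, 8.07 and 4.18 in 4OHT, so that every medium value was above every supernatant value.

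In 4OHT against ctrl, 1 of the 104 was called, where 0.35% of all genes were called higher. This was Ifi27, a small mitochondrial protein, which was higher (1.07 ± 0.22 (SE), adjusted p 0.0377 by edgeR). It had 16.6 and 22.6 CPM in medium, 12.6, 12.1 and 72.5 in ctrl, 12.9, 16.3 and 69.1 in Fer1, 11.3, 19.3 and 80.5 in 4OHT+Fer1 and 34.7, 26.1 and 109.6 in 4OHT, and it was highest in replicate 3 of each supernatant group. In 4OHT against 4OHT+Fer1, Cgas, the DNA sensor upstream of Sting1, passed the adjusted p and was lower in 4OHT (-0.73 ± 0.15 (SE), adjusted p 0.0353 by edgeR), at 44.4, 35.0 and 26.6 CPM against 66.0, 61.5 and 46.6 CPM. In the other comparisons, 0 of the 104 passed.

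Markers of other cells were looked up beside the difference from medium. Of 6 neutrophil markers, 2 (Ngp and S100a8) were lower in ctrl than in medium by edgeR, and the summed level of the 6 was 21.5 and 30.5 CPM in medium against 2.21 to 16.2 CPM in the supernatant samples. Ly6g and Elane were at 0 in all 14 samples, and Mpo and Camp did not exceed 0.111 and 1.65 CPM. Of the macrophage markers, Mrc1 was higher in ctrl than in medium (log2 fold change 2.27 ± 0.31 (SE), adjusted p 0.000692), and Adgre1, Fcgr1 and Mertk were lower at an adjusted p alone, by edgeR. Fibroblast markers summed to 34.0 and 104 CPM in medium and to 15.5 to 121 CPM with supernatant, and of the 4 tested Col1a1 (-1.17 ± 0.27 (SE), adjusted p 0.0159) and Col1a2 (-1.22 ± 0.28 (SE), adjusted p 0.0141) were lower in ctrl than in medium by edgeR. Markers of plasmacytoid dendritic cells summed to at most 2.16 CPM, of dendritic cells to at most 2.79 CPM, of T or NK cells to at most 0.704 CPM and of B cells to at most 3.50 CPM in a sample. The part of the neutrophil, macrophage and fibroblast markers in the difference from medium was not tested.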

How the data were processed

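RNA of 14 pBMDM samples was read as 3′ libraries (QuantSeq, 50-bp single-end). The authors aligned reads with STAR 2.7.10a and deposited a table of estimated counts per gene made with Salmon 1.5.2 (each an expected count), which depend on how reads shared by similar genes were split. Their notes list GRCh38 and GRCm38, and the identifiers are mouse. A second deposited table held the authors' DESeq2 1.36.0 comparisons (log2 fold changes, p-values) and was not used. Estimated counts, of which 30109 values were not whole, were rounded, although whole counts had been planned for. The edgeR quasi-likelihood test (edgeR 4.0.16, R 4.3.3) was fitted to all 14 samples with group and replicate number, TMM factors and a minimum count of 10, leaving 12851 of 55414 genes. It was also run on simulated data whose means held no replicate effect, so that run cannot judge the part of the block. Each SE was worked back from the quasi-likelihood test and not estimated by the fit itself. It is the size of the log2 fold change divided by the square root of the F statistic. Log2 CPM used a prior count of 2. Samples were grouped by their labels. Members with an adjusted p under 0.05 in any comparison, and in each role the one with the largest change in 4OHT against ctrl and the one with the highest mean CPM, are given in every sample. Of the other pathway genes, up to 4 per comparison with the smallest adjusted p are named, and the receptor, signalling and inhibitor genes besides were chosen after their values were seen. The members and lists were chosen with earlier results of these data known. Of 52 pairs of samples with other numbers the median correlation of deviations from the group mean was -0.14, and of 26 pairs with the same number 0.247 (lowest 0.0022, 21 above 0.1), and the pairing is taken from the mouse in the study's model. Alternatives were DESeq2 1.42.0, no block, the compared groups alone, RLE factors, no filter beyond 1 count, an adjusted p alone and each replicate left out. Promoter windows are RefSeq's on GRCm38.p6, and gene overlaps are those of GENCODE M21. The values of 1 pathway gene are not reported here.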

Additional observations from a re-analysis of the deposited data

How the results depend on the processing

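In 4OHT against ctrl, 1 member was called as reported, 2 at an adjusted p alone, 0 without the replicate block, 0 in a fit of the compared groups alone, and 0 to 3 with a replicate left out. In 4OHT against 4OHT+Fer1 it was 1, and 0 without the block, 0 with the compared groups alone and 0 to 3 with a replicate left out. In ctrl against medium 18 became 3 without the block and 1 to 19 with a replicate left out, and in 4OHT against medium 19 became 0 and 0 to 17. The fit without the block counts the spread between replicate numbers, taken here as mice, as error. Without replicate 1 or 2 medium had 1 sample, which is assumed to vary like the other groups. In 4OHT against medium, DESeq2 and the fit with no filter beyond 1 count each called 23 members. Both gained Usp18, Oas3, Gbp5 and Gbp7. Counts in the other 4 comparisons stayed at 0 under each alternative. Of 56 values of single genes, 43 lost significance without the block, 42 without replicate 1 and 45 without replicate 2, where Ifitm2 in 4OHT against medium also turned from 0.12 to -0.058 on the log2 scale (range with a replicate left out -0.058 to 0.24). With RLE factors all 56 kept direction and side of the threshold. Over all genes, 143 calls in 4OHT against ctrl became 6 without the block. Floors cover counting error only.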
